A study of Mus musculus with 6 samples.

Results

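The 3p arms of mouse miR-6896 to miR-7094 are 201 of the 1900 mouse miRNA probes on an array of mature miRNAs, and they were chosen by name alone: every probe whose number lies in that range, with any letter or copy number, and whose arm is 3p. The same numbers have 202 probes for 5p arms, and 1497 mouse probes lie outside the range. The arrays compared bone marrow-derived progenitor cells of adult male db/db mice (3 samples) with those of adult male db/+ mice (3 samples). The db/db mice carry 2 copies of the diabetes allele of the leptin receptor gene, become obese and develop type 2 diabetes, and came from the Jackson Laboratory. The db/+ mice carry 1 copy, are the usual lean controls, and were littermates from the same colony. All cells were the adherent fraction of marrow mononuclear cells, kept in endothelial growth medium (EGM-2) for 4 days, washed, and kept for another 3 days, so every group shared the medium. The labels give no age in weeks and do not say that each sample was 1 animal, so a p-value here measures the spread between these samples.

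Most miRNAs are cut out of a long primary transcript by the nuclease Drosha and then by Dicer. Mirtrons bypass Drosha: a short intron is spliced out, opened by the debranching enzyme, folds into a hairpin and is cut by Dicer alone. The 3p arm of such a hairpin holds the end of the intron, a polypyrimidine tract followed by the AG of the 3′ splice site. Where the hairpin spans the whole intron, the 5p arm lies at the start of the intron. Many miRNAs with numbers in this range were annotated from deep sequencing as mirtron candidates. Which of their hairpins span a whole intron was not tested. A miRNA acts by pairing its seed, bases 2 to 8 from its 5′ end, with messenger RNAs, so members with equal seeds are expected to share candidate targets.

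The 3p arms with the highest mean scanner signal show the pyrimidine-rich body that most members share, and 6 of the 9 printed here end in AG. They are printed from RefSeq (GRCm38.p6), 5′ to 3′, with the seed in capitals. They belong to the 12 members with the highest mean signal. Of those 12, miR-7082-3p is printed with the next group, and miR-7010-3p and miR-7064-3p are named only.
miR-7058-3p: cUCGUUCCuuccuuucuuccag
miR-6896-3p: uUUCUCUCucucaccuacaaac
miR-6929-3p: cAGGUGCUgucuucuucuuccag
miR-7027-3p: uCGGGUUUcucuccucuuccag
miR-6946-3p: uUUCUUCUcuucccuuucag
miR-7022-3p: aCAAGCCUgaccucugccccca
miR-6915-3p: cAACUUCCuuccucgugcccag
miR-7013-3p: cCACACUUacuguugccucuuccu
miR-7008-3p: uGUGCUUCuugccucuucucag
The genes whose spans hold these arms have varied functions. miR-7058-3p lies at chr7:126367971-126367992 (minus strand) inside Lat, the adaptor protein of T-cell receptor signalling. miR-6896-3p lies at chr1:34117408-34117429 (plus strand) inside Dst, which encodes the cytoskeletal linker dystonin. miR-6929-3p lies at chr11:101419187-101419209 (minus strand) inside Ptges3l. miR-7027-3p lies at chr5:114404518-114404539 (plus strand) inside Ube3b, a ubiquitin ligase gene. miR-6946-3p lies at chr14:20690684-20690703 (plus strand) inside Sec24c, which encodes a cargo-selecting subunit of the COPII vesicle coat.

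The members with the smallest unadjusted p between the groups were 8, and 5 of them had a RefSeq entry. These 5 are shown for that rank alone, and 0 of the 8 passed after adjustment. miR-6970-3p, miR-7029-3p and miR-7064-3p are named only. Capitals mark the seed.
miR-7034-3p: uUGGCCUUccuucccuacccuaca
miR-7082-3p: gCCCCCCUugcugucugucucc
miR-6968-3p: aCAAGCGCugucuccccuccag
miR-6998-3p: aGAGCUGCucugugcccacaca
miR-6898-3p: aAGUCUCUuuguaccuucucu
miR-7034-3p lies at chr5:135735807-135735830 (minus strand) inside Tmem120a. miR-7082-3p lies at chr9:21075499-21075520 (minus strand) inside Raver1, which encodes an RNA-binding protein. miR-6968-3p lies at chr17:26935518-26935539 (plus strand) inside Phf1, a gene of a Polycomb-associated protein. miR-6998-3p lies at chr2:31612462-31612483 (plus strand) inside Fubp3, and miR-6898-3p at chr1:36348688-36348708 (minus strand) inside Kansl3.

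The 5p partners of 3 of these hairpins show the contrast between the arms of 1 hairpin. Each is rich in purines where its 3p partner is rich in pyrimidines.
miR-7058-5p: uAGAGGGGaggugaccguggaagu
miR-7034-5p: uCCGGGAGggauggaugugcu
miR-7082-5p: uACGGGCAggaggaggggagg

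The 3p members were short of purines as a class. On average C made up 39.8 ± 9.96% of their bases, U 31.9 ± 10.3%, G 15.7 ± 7.44% and A 12.6 ± 6.18% (SD over 201 miRNAs). The 5p arms of the same numbers had 14.2 ± 7.44% C, 18.4 ± 7.83% U, 44.1 ± 9.13% G and 23.2 ± 9.43% A (n = 202), so the 2 arms were near mirror images in C and G. The other mouse miRNAs lay between them, with 23.5 ± 11.1% C and 27.1 ± 12.2% G (n = 1497). Pyrimidines were 71.7 ± 7.79% of the bases of the 3p members, against 32.6 ± 9.79% in the 5p arms and 50.1 ± 13.4% in the others. The longest unbroken run of pyrimidines had a median of 8 bases in the 3p members, 3 in the 5p arms and 4 in the others. Member lengths lay between 18 and 25 bases with a median of 21.

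**Figure D1:**
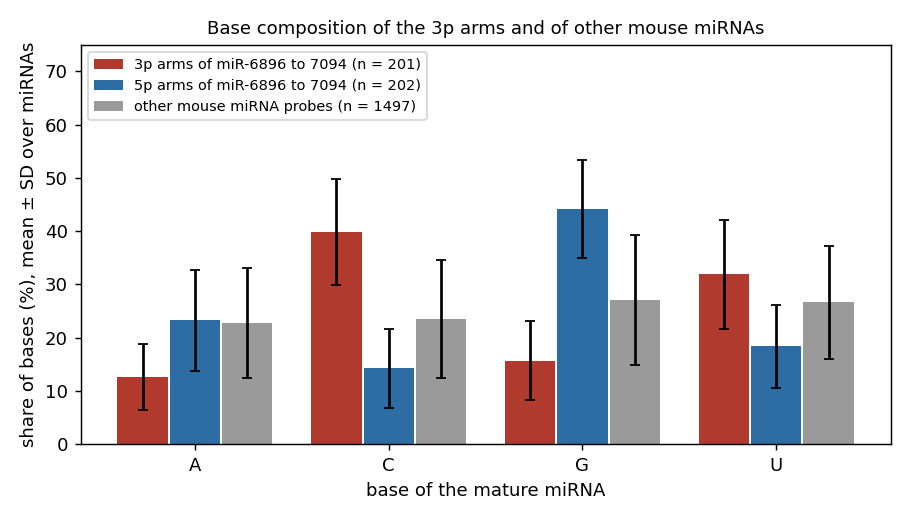
Share of each base (y axis, percent of the mature sequence, mean with SD bars over miRNAs) for A, C, G and U (x axis) in the 3p arms of miR-6896 to miR-7094, the 5p arms of the same numbers and all other mouse miRNA probes. C averaged 39.8% in the 3p arms and 14.2% in the 5p arms, and G averaged 15.7% in the 3p arms and 44.1% in the 5p arms.

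The splice-site letters stood at the 3′ end of most members. The last 2 bases were AG in 158 of 201 members (78.6%), against 17 of 202 5p arms (8.42%) and 121 of 1497 other mouse miRNAs (8.08%). CAG, the usual form of the 3′ splice site, ended 137 members (68.2%), and UAG ended 19 (9.45%). CAG ended 6 of the 5p arms (2.97%) and 42 of the others (2.81%).

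RefSeq held an entry for 177 of the 201 members (88.1%), and all 177 target sequences on the array equalled the RefSeq mature sequence. A hairpin was listed for 172 of them, with a length between 52 and 109 bases and a median of 66. The 3p arm ended at the last base of the hairpin in 128 (74.4%) and between 1 and 7 bases before it in the other 44. The hairpin itself ended in AG in 162 (94.2%), against 71 of 825 other mouse hairpins in RefSeq (8.61%). It began with GU, the letters of the 5′ splice site, in 23 (13.4%). Both ends together matched in 19 (11.0%), against 9 of 825 other hairpins (1.09%). The intron boundaries were not used here.

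The arm, and the hairpin where one was listed, lay within the span of a protein-coding gene in 176 of 177 members (99.4%), against 474 of 825 other hairpins (57.5%). The exception was miR-7094-3p. The gene table gives neither the strand of a gene nor its exons and introns, so whether a member lies in an intron of the gene that spans it was not tested. The members were spread over the genome, with 17 each on chromosomes 7 and 11, 16 each on chromosomes 5 and 8, and at most 12 on any other.

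The members shared few seeds. There were 191 distinct seeds among the 201, and 9 seeds were shared by 19 members. The seed CACCCUG was the most frequent, with 3 members, printed here because members with equal seeds are expected to share candidate targets. Whether these 3 members share any was not tested. They lie at chr4:149655504-149655525 inside Pik3cd, a catalytic subunit gene of PI3-kinase, at chr4:137538349-137538370 inside Hspg2, the perlecan gene, and at chr8:72470016-72470036 inside Cherp.
miR-7023-3p: uCACCCUGucugcgccccucag
miR-7018-3p: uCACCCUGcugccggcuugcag
miR-7068-3p: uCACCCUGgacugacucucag
The other 8 shared seeds had 2 members each, for example miR-7041-3p and miR-7010-3p with GGUUCUC, and miR-6932-3p and miR-7039-3p with CUGUUCU. No member's target sequence was equal to that of another mouse probe, or within 2 substitutions or an end shift of 2 bases of one, so the members have no near-identical copy among the probes.

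Each probe was printed in 2 spots per array, and its level is the mean of their scanner readings, a linear brightness in arbitrary units. The files hold no local background, so a reading was set against the 4 blank spots of the same array. The median of the blanks was 44.0, 56.5 and 73.0 units on the 3 db/db arrays and 97.2, 63.9 and 39.1 on the 3 db/+ arrays. The median member read 68.2, 53.3 and 66.2 units on the db/db arrays and 101, 72.7 and 48.3 on the db/+ arrays. As a multiple of the blanks, the median member was therefore at 1.55, 0.944 and 0.907 on the db/db arrays and at 1.04, 1.14 and 1.23 on the db/+ arrays. The middle of the 3p members thus lay close to blank on 5 of 6 arrays, and only db/db replicate 1 stood apart, with dark blanks beside its other spots.

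The labelled cell type was checked against marker miRNAs. Of the haematopoietic markers, 3 of 5 lay above the blanks on all 6 arrays, with miR-223-3p, the main miRNA of myeloid cells, at 96.1 to 282 times the blank median. Endothelial miR-126a-3p was above the blanks on all 6 arrays, and miR-126a-5p on 1. All 5 stromal markers were above the blanks on all 6 arrays, as was 1 of 2 erythroid markers, miR-451a, and 0 of 4 markers of liver, muscle and neuron. Of those 4, however, miR-133a-3p was above the blanks on 4 arrays and miR-122-5p on 3. So 2 of the 4 met the bar of at least 3 arrays used for the tests between the groups. The summed readings of the stromal list were 8105 to 16322 units on the db/db arrays and 7781 to 26659 on the db/+ arrays, and those of the haematopoietic list 11000.1 to 16150.0 and 5093 to 19873. No marker passed the test between the groups. By normalized log2 difference, all 5 stromal markers were lower in db/db than in db/+, at -0.28 to -0.70, and miR-214-3p, at -0.61, did not overlap. The 3 haematopoietic markers above the blanks on all 6 arrays were higher in db/db, at 0.56 for miR-223-3p, 0.68 for miR-142a-5p and 0.92 for miR-142a-3p, with overlapping groups, while miR-155-5p and miR-150-5p were at -0.47 and -0.14. Several of these differences are as large as those of the members described for their small p. Myeloid and stromal miRNAs were thus bright in cells labelled as progenitors, the markers do not define a progenitor, and the part of cell mixture in any member's value was not tested.

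Members counted as above the blanks where they read higher than the 95th percentile of the blanks on that array. On the db/db arrays 201, 69 and 65 members did so, which is 100%, 34.3% and 32.3%. On the db/+ arrays 92, 127 and 182 did so, which is 45.8%, 63.2% and 90.5%. The share averaged 55.6 ± 38.5% in db/db and 66.5 ± 22.6% in db/+ (SD, n = 3 each), so the arrays within a group differed by more than the groups did. Without db/db replicate 1 the db/db mean was 33.3%. The 5p arms of the same numbers were above the blanks at 100%, 59.9% and 55.0% on the db/db arrays and at 66.8%, 66.3% and 95.05% on the db/+ arrays. The 3p share was below the 5p share on 5 of the 6 arrays and equal to it on db/db replicate 1. The other mouse probes were above the blanks at 97.0%, 44.2% and 38.4% on the db/db arrays and at 49.7%, 57.7% and 88.6% on the db/+ arrays. The 3p share was below theirs on db/db replicates 2 and 3 and on db/+ replicate 1, and above theirs on the rest.

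**Figure D2:**
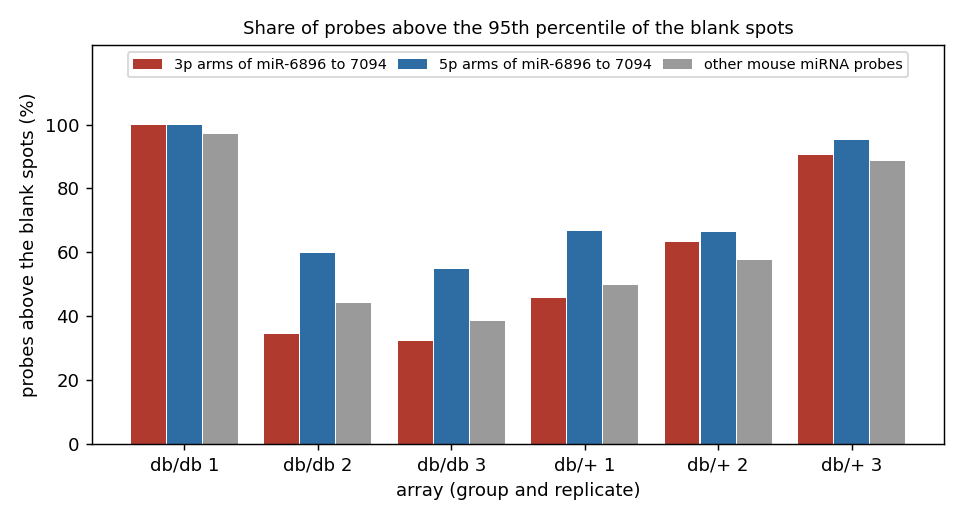
Share of probes (y axis, percent) above the 95th percentile of the blank spots on each of the 6 arrays (x axis), for the 3p arms, the 5p arms of the same numbers and the other mouse miRNA probes. The 3p share ran from 32.3% on db/db replicate 3 to 100% on db/db replicate 1, and the 3 probe classes moved together from array to array.

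Only a minority of members was above the blanks throughout. On all 6 arrays 48 of 201 members (23.9%) were above them, against 101 of 202 5p arms (50%) and 522 of 1497 other probes (34.9%). Another 20 members were above the blanks on 5 arrays, 29 on 4, 34 on 3, 60 on 2 and 10 on 1. A median above 2 times the blank was reached by 22 members (10.9%), 52 of the 5p arms (25.7%) and 393 of the others (26.3%). Above 2 times the blank on every array were 9 members.

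The blank spots bear on this count. All 4 lie in the first of the 128 rows of the array, whereas the members' spots lie in rows 1 to 128 with a median of 65. The median spot of rows 1 to 16 read 1.61, 1.24 and 1.15 times the blank median on the db/db arrays and 1.29, 1.31 and 1.12 times on the db/+ arrays. The median spot of rows 113 to 128 read 1.60, 0.832 and 0.890 times on the db/db arrays and 1.00, 1.26 and 1.33 times on the db/+ arrays. On db/db replicates 2 and 3 and on db/+ replicate 1 the far rows were thus darker, relative to the blanks, than the rows beside the blanks. Another bar, added after seeing the data, was 1.5 times the 10th percentile of the spots in the same 16 rows. On average 38.8% of members were above it in db/db and 26.2% in db/+, so the order of the group means turned. By array the shares overlapped, at 30.3%, 33.8% and 52.2% in db/db and 27.9%, 38.8% and 11.9% in db/+. The means were 59.2% and 46.9% for the 5p arms and 42.9% and 37.7% for the other mouse probes, in the same order. With the mean plus 3 SD of the blanks as the bar, 91.5%, 26.9% and 11.4% of members were above it on the db/db arrays and 28.9%, 41.3% and 39.3% on the db/+ arrays. The db/db mean of 43.3% was then above the db/+ mean of 36.5%, but db/db replicate 1 alone lay above the db/+ arrays, and the other 2 lay below all 3 of them.

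The brightest member was miR-7058-3p, the arm inside Lat. It read 564, 1432 and 1209.8 units on the db/db arrays and 1845, 1526 and 301 on the db/+ arrays, which is 7.70 to 25.4 times the blank median. The groups overlapped, with the dimmest array, db/+ replicate 3, and the brightest, db/+ replicate 1, in the same group. After normalization its log2 intensity averaged 9.94 ± 0.33 in db/db and 9.95 ± 0.42 in db/+ (SD, n = 3 each), a difference of -0.01 (SE 0.26, 95% interval -0.61 to 0.59, limma adjusted p = 1.00).

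miR-6896-3p, the arm inside Dst, read 351, 578 and 1094 units in db/db and 562, 1074 and 155 in db/+, or 3.97 to 16.8 times the blank. Its groups overlapped, and its log2 difference was 0.35 (SE 0.40, limma adjusted p = 0.92). miR-6929-3p, inside Ptges3l, read 294, 640.0 and 592 units in db/db and 935, 688 and 156 in db/+, with overlapping groups. Its log2 means were 8.91 ± 0.25 in db/db and 8.93 ± 0.40 in db/+ (SD, n = 3 each), a difference of -0.02. Dimmest for all 3 of these members was db/+ replicate 3, whose blanks were also the dimmest.

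miR-7027-3p, inside the ubiquitin ligase gene Ube3b, read 232, 394 and 497 units in db/db and 372, 692 and 96.5 in db/+, with a log2 difference of 0.22 (SE 0.36, limma adjusted p = 0.92). miR-6946-3p, inside Sec24c, read 187, 297 and 440.1 units in db/db and 283, 468 and 76.9 in db/+. Its log2 difference was 0.40 (SE 0.34, 95% interval -0.40 to 1.20, limma adjusted p = 0.89). In both the groups overlapped, and the interval reached above a 1 log2 unit difference, so these arrays bound the difference only loosely.

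The rest of the 12 brightest were miR-7010-3p, miR-7022-3p, miR-6915-3p, miR-7082-3p, miR-7013-3p, miR-7008-3p and miR-7064-3p. miR-7010-3p read 162, 355 and 297 units in db/db and 519.7, 345 and 93.6 in db/+, and its log2 difference was -0.07. miR-7022-3p, inside the F-box protein gene Fbxo6, read 183, 413 and 218 units in db/db and 455, 267 and 114 in db/+, with a log2 difference of 0.0027. miR-6915-3p, inside Ankrd52, read 171, 249 and 325 units in db/db and 295, 420.0 and 87.2 in db/+, with a log2 difference of 0.07. All 3 overlapped between the groups. miR-7013-3p, in a stretch that the spans of Pi4kb and Zfp687 share, read 128, 252 and 145 units in db/db and 426, 241 and 78.3 in db/+, and its log2 difference was -0.27 (limma adjusted p = 0.89). miR-7008-3p, inside Prkci, the gene of an atypical protein kinase C, read 134, 206 and 197 units in db/db and 301, 282 and 66.5 in db/+, with a log2 difference of 0.01. These differences are all small beside the spread of the readings within a group.

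**Figure D3:**
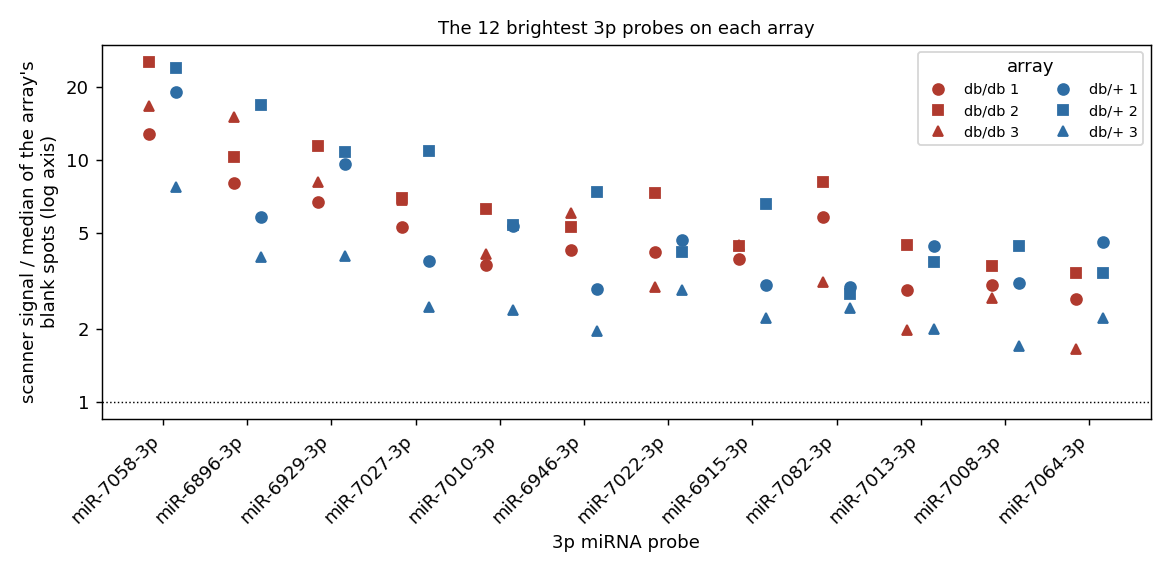
Scanner signal of the 12 brightest 3p probes (x axis) as a multiple of the median of the blank spots of the same array (y axis, log axis), 1 point per array, db/db in red and db/+ in blue, with the marker shape giving the replicate. The dotted line marks the blank median, and miR-7058-3p lay between 7.70 and 25.4 times it.

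The 2 arms of a hairpin often differed in whether they cleared the blanks. Of the 200 members with a 5p partner on the array, 103 had both arms tested (above the blanks on at least 3 arrays), 27 the 3p arm alone, 46 the 5p arm alone and 24 neither. On all 6 arrays both arms were above the blanks in 25 hairpins, the 3p arm alone in 23, the 5p arm alone in 76 and neither in 76. The hairpin of the brightest 3p arm was among those with the 3p arm alone: miR-7058-5p read 81.0, 44.7 and 62.7 units in db/db and 86.6, 64.9 and 48.2 in db/+, or 0.791 to 1.84 times the blank. In miR-7082 both arms were above the blanks on all 6 arrays, and the 5p arm read 2301, 3454 and 2878 units in db/db and 4638, 3854 and 1253 in db/+. Readings of different probes are not compared as amounts, since probes differ in how strongly they bind and light up.

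Clearing the blanks on at least 3 arrays also went with the sequence, though not every measure showed it. Members with the AG end were tested in 96 of 158 cases (60.8%), and those with another end in 35 of 43 (81.4%). Above the blanks on all 6 arrays were 22.8% and 27.9%, and the median multiples of the blank were 1.10 and 1.12. In the members with low, middle and high C content, split into 3 groups of similar size, 49.3%, 65.1% and 82.1% were tested. With low, middle and high U content there were 78.8%, 61.8% and 51.5% tested. On all 6 arrays the shares were 16.9%, 22.2% and 32.8% by C content and 31.2%, 16.4% and 21.2% by U content. Across the 201 members, which share the same 6 arrays, Spearman's rho of mean log2 signal was 0.30 with the C share and -0.20 with the U share. Pearson's r was 0.14 and 0.02. In the 202 5p arms rho was 0.56 with the G share and -0.41 with the U share, and r was 0.55 and -0.28. Base composition also sets how tightly a probe binds, and the part of this in the readings was not tested.

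The established mirtrons miR-877 and miR-1224, whose numbers lie outside the range, are given for comparison. miR-1224-5p was bright, at 3037, 6597 and 3238 units in db/db and 9136, 5659 and 2147 in db/+, or 44.4 to 117 times the blank, with a log2 difference of -0.20 (SE 0.21, limma adjusted p = 0.91). Its 3p arm read 71.0, 65.4 and 96.1 units in db/db and 130.2, 116 and 53.7 in db/+, and miR-877-3p read 85.5, 73.9 and 77.9 in db/db and 109, 83.6 and 50.9 in db/+. Both 3p arms thus lay below 2 times the blank on every array, as did most of the 201 members at their median. Their log2 differences were -0.10 for miR-1224-3p and 0.18 for miR-877-3p, and neither passed.

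The groups were compared over the 1181 mouse probes above the blanks on at least 3 of 6 arrays, of which 131 were 3p members (65.2% of 201). Of the 5p arms 73.8% were tested, and of the other mouse probes 60.2%. Among these 131, 49 were above the blanks on only 1 db/db array, and 2 on only 1 db/+ array. For those 49 it was db/db replicate 1, where all 201 members were above the blanks. Of the remaining 70 members, 60 were above the blanks on 2 arrays and 10 on 1, and the highest reading among them was 154 units. Of the 131 tested members 0 passed at an adjusted p of 0.05 (limma, Benjamini-Hochberg over all tested probes), against 0 of all 1181 (0%). The smallest adjusted p of a member was 0.89. Without adjustment 6 members (4.58%) had a p under 0.05, against 59 of all 1181 (5%). Of these 6 among 131 members, 5 were higher in db/db, against 34 of all 1181 (2.88%), and 1 was lower, against 25 (2.12%). The share in either direction was near that of the whole array, and the split by direction rests on only 6 members. With 1 array left out the 6 became 15 without db/+ replicate 2, 7 without db/db replicate 2 and 4 without db/+ replicate 3. The count was 3 without db/+ replicate 1 or db/db replicate 3, and 1 without db/db replicate 1. With 75th percentile scaling, and with no normalization between arrays, it was 0. The share over all probes in these and the other alternative fits is not given here, so these counts are not read against a background.

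The db/db and db/+ samples did not overlap in 13 members (9.92%), against 114 of all tested probes (9.65%). In 9 of the 131 every db/db sample was above every db/+ sample, against 48 of all 1181 (4.06%). In 4 of the 131 every one was below, against 66 of all 1181 (5.59%). The split by direction rests on only 13 members. The median log2 difference of the members was 0.03, against -0.02 over all tested probes. The interquartile range of the members ran from -0.08 to 0.17, with 73 members higher in db/db and 58 lower. With each array scaled to its 75th percentile instead of quantile normalization, 39 were higher and 92 lower, while the median of all probes moved to -0.14 and that of the members to -0.09. Relative to all probes the members' median was 0.05 under both scalings. The extremes were miR-7082-3p at 0.71 and miR-7064-3p at -0.49, and 0 of 131 differed by more than 1 log2 unit.

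miR-7034-3p, the arm inside Tmem120a, had the smallest unadjusted p. It read 98.4, 108 and 87.9 units in db/db and 94.7, 85.7 and 48.1 in db/+, which is 0.974 to 2.23 times the blank, and it was above the blanks on 3 db/db and 2 db/+ arrays. The scanner readings overlapped between the groups, but the normalized log2 intensities did not, at 6.84 ± 0.17 in db/db and 6.34 ± 0.15 in db/+ (SD, n = 3 each). The log2 difference was 0.50 (SE 0.15, 95% interval 0.15 to 0.84, limma adjusted p = 0.89). The 5p arm of the same hairpin had a similar difference, at 0.42 (SE 0.13, limma adjusted p = 0.89), again with groups that did not overlap after normalization. miR-7034-5p read 178, 268 and 306 units in db/db and 287, 184 and 91.8 in db/+, so its readings overlapped too. The 2 probes lie near each other on the array, at mean rows of 39 and 40. miR-7034-3p had an unadjusted p under 0.05 in 16 of 19 alternatives, among them each of the 6 fits with 1 array left out. It did not with 75th percentile scaling (log2 difference 0.37), with no normalization between arrays (0.46) and without db/db replicate 1 and db/+ replicate 3 together (0.49). Its adjusted p lay between 0.60 and 1.00 over the 19 alternatives that tested it.

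miR-7082-3p, the arm inside Raver1, read 255, 457 and 229 units in db/db and 289, 179 and 95.7 in db/+, or 2.45 to 8.10 times the blank. It was above the blanks on every array, and its groups overlapped. The log2 means were 8.28 ± 0.49 in db/db and 7.57 ± 0.21 in db/+ (SD, n = 3 each), a difference of 0.71 (SE 0.26, 95% interval 0.10 to 1.32, limma adjusted p = 0.89). Its 5p arm, miR-7082-5p, differed by -0.04. The difference between the arms was not tested.

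miR-7064-3p was the member with the lowest value in db/db relative to db/+. It read 118, 193 and 120.5 units in db/db and 446, 219 and 87.3 in db/+, at 1.65 to 4.58 times the blank. The normalized log2 means were 7.27 ± 0.30 in db/db and 7.76 ± 0.26 in db/+ (SD, n = 3 each), without overlap. The difference was -0.49 (SE 0.20, 95% interval -0.97 to -0.01, limma adjusted p = 0.89). Its 5p arm was not tested, being too close to the blanks.

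The other 5 were dimmer. miR-6970-3p read 94.7, 65.7 and 98.1 units in db/db and 111, 75.3 and 47.2 in db/+, and its log2 difference was 0.36 (SE 0.14). miR-7029-3p read 79.2, 87.9 and 94.4 units in db/db and 104, 88.5 and 45.8 in db/+, with a log2 difference of 0.34 (SE 0.14). miR-6968-3p, inside Phf1, read 73.8, 61.5 and 88.0 units in db/db and 101, 67.0 and 43.1 in db/+, with a log2 difference of 0.31 (SE 0.13). In all 3 the normalized groups did not overlap, although the highest scanner reading was on db/+ replicate 1. miR-6998-3p read 72.5, 79.2 and 65.6 units in db/db and 252, 96.7 and 62.3 in db/+, with a log2 difference of -0.48 (SE 0.21). miR-6898-3p read 65.9, 74.6 and 52.9 units in db/db and 168, 83.2 and 63.0 in db/+, with a log2 difference of -0.38 (SE 0.18). The normalized groups of these last members overlapped, and each of the 5 had a limma adjusted p = 0.89.

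**Figure D4:**
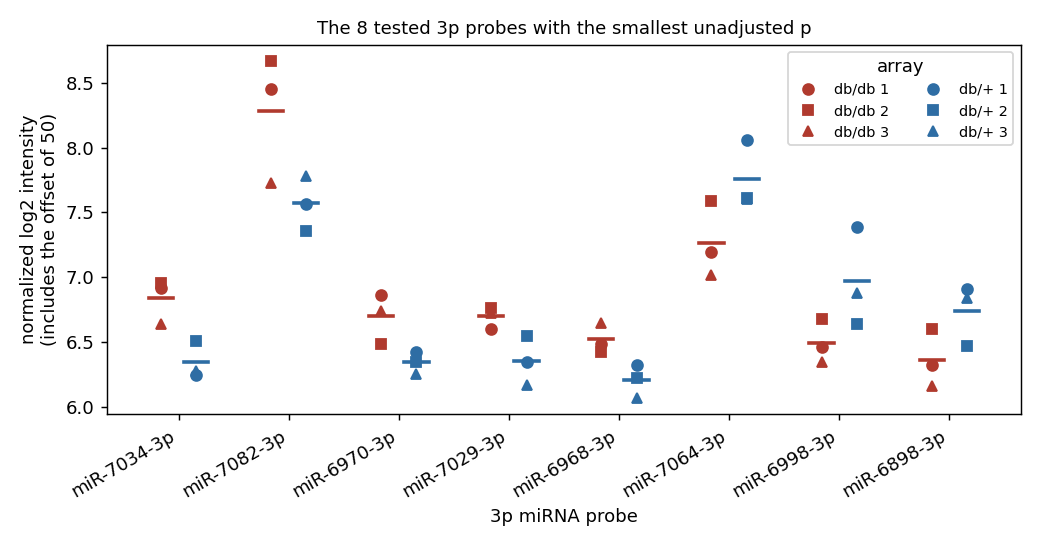
Normalized log2 intensity (y axis, with the offset of 50 units added before the logarithm) of the 8 tested 3p probes with the smallest unadjusted p (x axis), 1 point per array, db/db in red and db/+ in blue, with bars at the group means. miR-7034-3p averaged 6.84 in db/db and 6.34 in db/+, and 0 of the 8 passed after adjustment.

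Most readings of the members that share the seed CACCCUG lay near the blanks. miR-7023-3p read 69.0, 62.0 and 87.8 units in db/db and 119, 59.7 and 46.2 in db/+, miR-7018-3p 60.6, 46.1 and 61.6 in db/db and 98.6, 70.3 and 44.0 in db/+, and miR-7068-3p 62.7, 43.6 and 56.4 in db/db and 85.3, 234 and 50.8 in db/+. Their log2 differences were 0.23, -0.02 and -0.43, and none of the 3 passed. The 3 differences thus had different signs. The 234 units of miR-7068-3p on db/+ replicate 2 were 3.65 times the blank, and without that array its difference was -0.07.

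The sign of a member's difference went with the mean row of its 2 spots on the array. The 2 spots of a member lay 22 to 106 rows apart (median 22), so the mean row can be far from both spots. By this mean row, 19 of 20 members in rows 1 to 32 were higher in db/db, with a median log2 difference of 0.22. In rows 33 to 64 it was 32 of 45 (median 0.09), in rows 65 to 96 17 of 45 (median -0.02) and in rows 97 to 128 5 of 21 (median -0.07). Over all 1181 tested probes the same rows had 84 of 127, 258 of 468, 163 of 452 and 34 of 134 higher, so the pattern was not limited to the members. Spearman's rho between the log2 difference and the row was -0.56 over the 131 members and -0.27 over all 1181 probes, which share the same 6 arrays.

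The member values of rows 1 to 32 stood at a median of 0.06, 0.05 and 0.13 log2 units from their own mean over arrays on the db/db arrays, and at -0.03, -0.06 and -0.27 on the db/+ arrays, so db/+ replicate 3 was farthest. Without db/+ replicate 3, 15 of 20 members of those rows were higher in db/db (median 0.12) and rho was -0.44. With a smooth trend over rows removed from each array, an alternative added after seeing the data, 15 of 20 were higher in rows 1 to 32 (median 0.12) and 10 of 21 in rows 97 to 128 (median -0.0026). The rho was then -0.30 over the members and -0.05 over all probes.

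After the row trend was removed, 78 members were higher in db/db and 53 lower, and 1 member had an unadjusted p under 0.05. That member was miR-7034-3p, with a log2 difference of 0.45. The differences of miR-6970-3p, miR-7029-3p and miR-6968-3p, whose mean rows were 28, 28 and 23, were 0.27, 0.26 and 0.22 after removal. For miR-7082-3p, at mean row 13, it was 0.60, and for miR-7064-3p, at mean row 104, it was -0.41. For miR-7034-5p it was 0.37. What lay behind the pattern over rows was not tested.

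**Figure D5:**
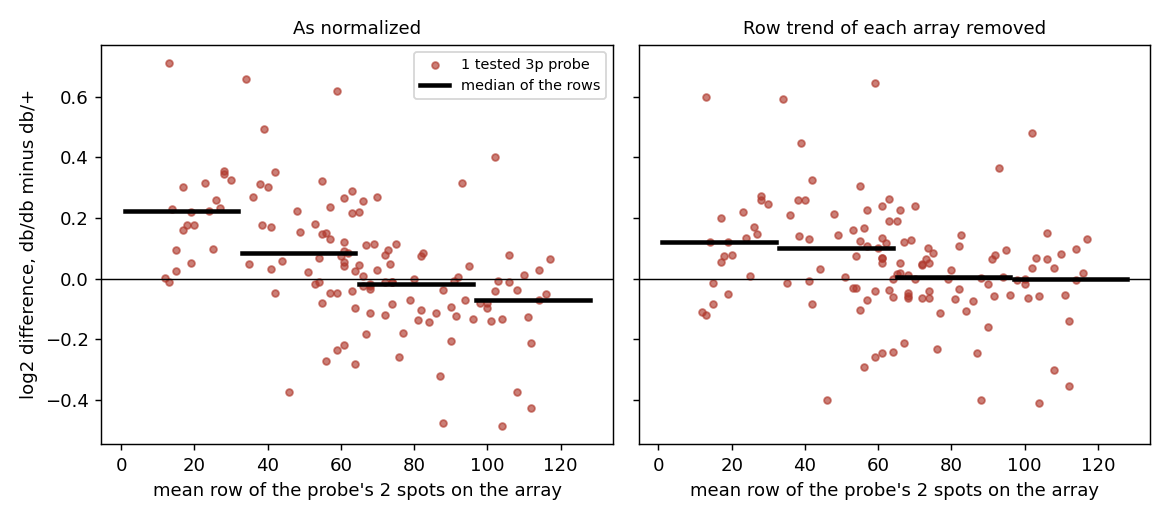
Log2 difference of each tested 3p probe (y axis, db/db minus db/+) against the mean row of its 2 spots on the array (x axis), as normalized (left) and with each array's trend over rows removed (right). The black bars are the medians of rows 1 to 32, 33 to 64, 65 to 96 and 97 to 128, which were 0.22, 0.09, -0.02 and -0.07 as normalized and 0.12, 0.10, 0.0049 and -0.0026 after removal.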

How the data were processed

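Total RNA (1 µg per sample) was tailed with poly(A), tagged and stained with Cy5 on miRNA arrays by a service provider, per the labels' protocols. The authors' deposited scanner files hold 1 median intensity per spot, per the file headers, with 3968 spots per array, 168 of them controls. The authors' deposited value table, also linear intensity, was used as an alternative; its normalization method is not given in these sources. Spots were corrected with normexp (offset 50), quantile-normalized over the spots of mouse miRNAs, log2-transformed, averaged over 2 spots and tested with limma 3.58.1 (lmFit, eBayes, two-sided) in R 4.3.3, Benjamini-Hochberg over 1181 probes. Over the members, paired spots correlated at 0.848 to 0.960 on each array. The number of arrays limits the precision. Log2 differences include the offset, which shrinks those of dim probes. Named members were the 8 tested with the smallest p and the 12 brightest. Members and lists were chosen with earlier results of these data known. Python 3.11.15 and matplotlib 3.10.9 drew the figures. The fitting code was tested on simulated data.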

Additional observations from a re-analysis of the deposited data

How the results depend on the processing

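In all 20 alternative fits 0 members passed, and the smallest adjusted p of a member was 0.40, for miR-7082-3p without db/db replicate 3 (limma). Over all mouse probes the count that passed was 4 with 75th percentile scaling, 2 with an intensity trend in eBayes, 1 with an offset of 16 and 1 over probes above the blanks on all 6 arrays. With 1 array left out it ran from 0 to 3, with the 3 found without db/db replicate 2, and it was 0 in the other alternative fits. The members' median log2 difference was -0.085 with 75th percentile scaling and ran from 0.0063 to 0.075 with 1 array left out.

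The labels state no pairing by replicate number. Deviations from the group means correlated at -0.04, -0.003 and 0.04 between same-numbered samples. Between differently numbered samples they correlated at -0.36 to 0.37. With 3 samples per group the deviations constrain each other, so these values cannot decide whether samples were paired. With the replicate number as a block, 0 probes and 0 members passed, the members' median was 0.028 and 2 members had an unadjusted p under 0.05.

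Of 356 recomputed differences of the 18 named members, 34 changed sign, none of them past the threshold, while 11 of the 18 kept their sign throughout. The changes were in bright members, whose main differences lay near 0 except for miR-7027-3p at 0.22. With 75th percentile scaling miR-7008-3p was at -0.099. With no normalization between arrays miR-7058-3p was at 0.061, miR-6929-3p at 0.045, miR-7010-3p at 0.011 and miR-7008-3p at -0.0089. With cyclic loess miR-7058-3p was at 0.10, miR-6929-3p at 0.040 and miR-7008-3p at -0.039. miR-7022-3p was at -0.014 with the blank median subtracted, -0.0021 with an offset of 16 and -0.041 in the authors' value table. With array weights miR-7022-3p was at -0.075, miR-6915-3p at -0.011 and miR-7008-3p at -0.11. With 1 array left out miR-7058-3p ran from -0.24 to 0.17, miR-6929-3p from -0.25 to 0.12, miR-7010-3p from -0.26 to 0.088, miR-7022-3p from -0.23 to 0.18, miR-6915-3p from -0.059 to 0.34, miR-7008-3p from -0.25 to 0.21 and miR-7027-3p from -0.022 to 0.62. In settings added after seeing the data, miR-7008-3p was at -0.19 when the arrays of db/db replicate 1 and db/+ replicate 3 were dropped, and with the row trend removed miR-7058-3p was at 0.065 and miR-7022-3p at -0.11. The causes were not tested.

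With the blank median subtracted, in place of normexp and its offset, the differences of dim members were larger, at 2.95 for miR-7034-3p and -2.44 for miR-6998-3p. With normexp and an offset of 16 they were 0.77 and -0.69. On db/+ replicate 1 miR-7034-3p read 94.7 units, below the blank median of 97.2. On db/db replicate 3 miR-6998-3p read 65.6 units, below the blank median of 73.0. With the blank median subtracted, any spot less than 1 unit above that median was set to 1 unit before the logarithm. What part the subtraction and this floor had was not tested. The db/+ share above the blanks was 36.5% with the mean plus 3 SD of the blanks and 26.2% with 1.5 times the dim spots of the same rows. Most members lay within 2 times the blank, so the signal limits what could be seen.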
